A study of Mus musculus with 18 samples.

Results

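Testis RNA of mice on a high-fat diet with an AOS-labelled transplant was set against testis RNA of control mice, across 13105 genes. These were the genes whose mean over all 18 libraries of the study reached 1 FPKM (fragments per kilobase of transcript, scaled by the mapped fragments of the library), out of 20979 gene symbols. The comparison took 6 of the 18 libraries. The 3 HFD-AOSFMT libraries are labelled high-fat diet with FMT of AOS at 10 mg/kg, and the 3 control libraries carry no treatment in their label. The other 4 groups, of 3 libraries each, are HFD-conFMT (the diet and FMT labelled control), HFD-AOS (the diet and AOS, 10 mg/kg), HFD (the diet alone) and AOS (10 mg/kg, without the diet). All animals were ICR mice, an outbred stock, aged 10 weeks, and the tissue was whole testis. AOS and FMT are given as labelled, because the labels do not write them out. The study asked how the transplants act on testis damaged by the diet. Diet and transplant differ together between HFD-AOSFMT and control, so their parts cannot be told apart in this comparison. Whether the 3 libraries of a group were 3 animals is not stated, and a p-value here speaks only to the spread among these libraries, which may be technical.

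The testis makes sperm in seminiferous tubules, where germ cells pass from spermatogonia through meiotic spermatocytes to round and elongating spermatids. Sertoli cells nurse the germ cells and form the blood-testis barrier, peritubular smooth muscle cells wrap the tubules, and Leydig cells between the tubules turn cholesterol into testosterone. Late spermatids replace histones first by transition proteins and then by protamines. In RNA of whole testis, fewer cells of a type and less RNA per cell cannot be told apart.

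The defining transcripts of testis were abundant in all 6 libraries. Prm1, which encodes protamine 1, averaged 14979 ± 606 FPKM in HFD-AOSFMT and 12796 ± 1042 FPKM in control libraries (SD, n = 3 each). Insl3, the Leydig cell hormone, averaged 3291 ± 502 FPKM in HFD-AOSFMT and 3144 ± 208 FPKM in control libraries. FPKM values summed to between 617287 and 624384 per HFD-AOSFMT library and to between 588081 and 602525 per control library, without overlap. Protamine and transition protein transcripts took 7.95% to 8.27% of that sum in HFD-AOSFMT and 7.02% to 7.85% in control libraries. Control replicate 3 stood apart by epididymal transcripts. Crisp1, a sperm-coating protein of the epididymis, was at 0, 0.15 and 0.1 FPKM in HFD-AOSFMT libraries, against 2.71, 0.15 and 158.77 FPKM in control libraries. HFD-conFMT replicate 2, which adds to the estimate of the spread, held 103.97 FPKM of Crisp1.

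Of the 13105 genes, 50 passed an adjusted p of 0.05 between HFD-AOSFMT and control in either direction, a share of 0.382% (limma with Benjamini-Hochberg adjustment). In HFD-AOSFMT, 32 genes rose, or 0.244%, and 18 fell, or 0.137%. Without adjustment, 2297 genes had a p under 0.05. Kap, a transcript of kidney proximal tubule, was far ahead of the rest with an adjusted p of 1.48e-16. The other 49 calls lay close to the threshold, with adjusted p-values of 0.0331 to 0.04996, and the median size of a call was 0.30 on the log2(FPKM + 1) scale. These 49 were not particular to HFD-AOSFMT. All 49 had the same direction in HFD-conFMT against control, which shares the control libraries. Against control, 39 of them also passed in HFD-conFMT, 20 in HFD-AOS, 1 in AOS and 0 in HFD. All 3 HFD-AOSFMT libraries lay above all 3 control libraries for 11.0% of genes and below them for 15.4%. Regardless of the test, 44.2% of genes had a positive log2 difference.

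The number of calls depended on single libraries and on the scaling. Leaving out any of the 6 libraries in turn left between 1 and 9 genes called, with Kap among them each time. Without both control replicate 3 and HFD-conFMT replicate 2, Kap alone was called. Of the 50 calls, 64.0% were higher in HFD-AOSFMT. Quantile normalization gave 52 calls with 38.5% higher, and scaling every library to the same sum gave 375 calls with 8.0% higher.

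The promoters of Kap and of the 3 kallikrein genes named below are shown. Among the genes that passed, these had the largest differences in each direction. Each sequence runs 5′ to 3′ on the strand of the gene, from 250 bases before the RefSeq transcript start to 50 after it (RefSeq, GRCm38.p6). Capitals mark TATAAA and TTTAAA on the strand of the gene and AGAACA on both strands. Kap lies at chr6:133853618-133853917 on the minus strand. Klk1b27 at chr7:44052040-44052339, Klk1b21 at chr7:44102042-44102341 and Klk1b24 at chr7:44187986-44188285 lie on the plus strand.
Kap: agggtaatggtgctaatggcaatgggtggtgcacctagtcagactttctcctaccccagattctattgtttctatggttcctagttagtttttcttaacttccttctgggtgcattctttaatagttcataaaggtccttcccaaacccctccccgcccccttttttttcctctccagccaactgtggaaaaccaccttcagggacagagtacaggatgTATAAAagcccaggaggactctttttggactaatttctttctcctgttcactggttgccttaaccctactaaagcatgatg
Klk1b27: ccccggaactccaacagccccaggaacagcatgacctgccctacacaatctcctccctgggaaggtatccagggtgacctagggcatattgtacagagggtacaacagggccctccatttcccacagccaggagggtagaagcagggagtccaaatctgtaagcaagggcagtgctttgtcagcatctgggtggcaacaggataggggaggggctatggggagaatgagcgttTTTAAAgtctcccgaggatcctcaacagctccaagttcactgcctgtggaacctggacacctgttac
Klk1b21: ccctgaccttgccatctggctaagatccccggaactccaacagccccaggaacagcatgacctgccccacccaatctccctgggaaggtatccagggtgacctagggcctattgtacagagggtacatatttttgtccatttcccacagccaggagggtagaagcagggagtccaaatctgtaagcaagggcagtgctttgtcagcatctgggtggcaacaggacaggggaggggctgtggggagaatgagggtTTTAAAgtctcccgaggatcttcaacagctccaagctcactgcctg
Klk1b24: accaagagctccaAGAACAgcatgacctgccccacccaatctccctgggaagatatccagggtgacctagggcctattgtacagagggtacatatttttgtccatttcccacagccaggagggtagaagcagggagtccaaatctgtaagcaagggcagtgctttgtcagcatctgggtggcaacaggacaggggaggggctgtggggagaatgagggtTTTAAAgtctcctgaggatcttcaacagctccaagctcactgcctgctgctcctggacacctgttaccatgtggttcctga

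TATAAA is the textbook TATA box, TTTAAA differs from it by a base and was chosen after these promoters were read, and AGAACA is the hexamer of androgen and glucocorticoid receptor half-sites. No match overlapped another in these 4 windows. The Kap window held TATAAA 31 bases before the start. TTTAAA stood 31 bases before the start of Klk1b24, 17 bases before that of Klk1b27 and just after that of Klk1b21. The GENCODE annotation starts Klk1b21 later, at chr7:44102328, and from there TTTAAA lies before the start. Its position in Klk1b21 thus depends on the annotation. TTTAAA was found in 13 of the 14 promoters of the kallikrein 1 family (92.9%), against 13.2% of 32851 promoters of the same length. TATAAA was in 0 of the 14, against 8.32% of all promoters. AGAACA was in 2 of the 14 (14.3%), against 19.0% of all promoters, and Klk1b24 held it 237 bases before the start. A match describes letters in the window and is not a binding site.

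Kap, the kidney androgen-regulated protein gene, is known in mouse as an abundant, androgen-induced transcript of the kidney proximal tubule. The gene spans chr6:133849851-133853762 on the minus strand. Kap was present at 37.69, 31.47 and 36.32 FPKM in the 3 HFD-AOSFMT libraries, and was listed at 0 in all 3 control libraries. Of the 15 other libraries of the study, 14 listed Kap at 0 and HFD replicate 3 listed 0.15 FPKM. The 3 HFD-AOSFMT libraries were close to each other and stood far above every other library. The difference from control was 5.17 ± 0.08 on the log2(FPKM + 1) scale (SE, limma adjusted p = 1.48e-16). Kap passed the filter on low values only through the HFD-AOSFMT libraries. It was called in all 29 alternatives tried, among them the fit with no filter.

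Other kidney transcripts were looked up after the values of Kap were seen, so they are given as a description. Of 44 such genes, Kap included, 22 had all 3 HFD-AOSFMT libraries above all 3 control libraries and 2 had them below. Among all genes tested, 11.0% and 15.4% did. Only 7 of the 44 passed the filter on low values, so these shares are of genes of unlike level. For 18 of the 44, or 40.9%, the 3 HFD-AOSFMT libraries lay above all 15 other libraries, where 0.267% of all genes with a value did. These 18 were 14 of 24 genes of the proximal tubule, which reclaims solutes from filtrate, 1 of 5 of the loop of Henle, 2 of 5 of the distal tubule, 1 of 6 of the collecting duct and 0 of 4 of the podocyte. Some listed genes had a level in all libraries, so the counts by segment partly reflect that level. Trpm6 averaged 7.0 FPKM in HFD-AOSFMT and 7.13 FPKM in control libraries. Wt1, also in the Sertoli cell list, averaged 10.44 FPKM in HFD-AOSFMT and 11.1 FPKM in control libraries. Over the whole list without Kap, the values summed to 38.09, 39.55 and 38.7 FPKM in the HFD-AOSFMT libraries, against 35.19, 32.06 and 35.36 FPKM in the control libraries. The 17 genes other than Kap that lay above all 15 other libraries were below the filter on low values, and they were picked for that gap. Their values summed to 9.34, 8.40 and 7.56 FPKM in the HFD-AOSFMT libraries, against 0.97, 1.13 and 1.65 FPKM in the control libraries. Over all 15 other libraries the sum ran from 0.75 to 1.83 FPKM with a median of 1.16 FPKM.

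Slc34a1, the phosphate transporter of the proximal tubule, stood at 1.25, 0.84 and 0.81 FPKM in HFD-AOSFMT libraries, against 0.04, 0.07 and 0.04 FPKM in control libraries. The groups were far apart relative to the spread within them. Acsm2, a mitochondrial acyl-CoA ligase, was at 0.51, 0.38 and 0.42 FPKM in HFD-AOSFMT libraries and listed at 0 in all 3 control libraries. Cltrn, collectrin of the tubule brush border, was at 0.62, 0.79 and 0.40 FPKM in HFD-AOSFMT libraries and listed at 0 in all 3 control libraries. Umod, which encodes uromodulin of the loop of Henle, was at 0.23, 0.20 and 0.38 FPKM in HFD-AOSFMT libraries, against 0.05, 0 and 0 FPKM in control libraries. S100g, a calbindin of the distal tubule, varied most of these genes within the group, at 0.82, 1.01 and 0.21 FPKM in HFD-AOSFMT libraries. It was listed at 0 in all 3 control libraries.

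With no filter on low values, 42 of 20576 genes rose in HFD-AOSFMT against control, or 0.204%, and 10 of the 44 kidney genes were among them. Besides Kap they included Slc34a1 (adjusted p = 1.53e-05), Acsm2 (5.11e-08), Keg1 (0.000786), Cyp2j5 (0.0335), Cltrn (4.44e-05), Glyat (7.45e-05), Umod (0.00875) and S100g (0.0242), all by limma. Glyat and S100g were listed at 0 in all 15 other libraries, so they entered that fit only through the HFD-AOSFMT libraries. For Acsm2, Keg1, Cyp2j5 and Cltrn, no other library exceeded 0.07 FPKM. These p-values therefore describe the gap and are no separate support for it. None of the 44 fell in that fit. Several abundant kidney transcripts showed no such difference. Lrp2, the endocytic receptor megalin, was at 0.23, 0.30 and 0.32 FPKM in HFD-AOSFMT libraries, against 0.53, 0.26 and 0.57 FPKM in control libraries. Aqp2, the water channel of the collecting duct, was at 2.73, 3.64 and 3.79 FPKM in HFD-AOSFMT libraries, against 4.71, 5.0 and 7.14 FPKM in control libraries. Nphs1, the nephrin gene of podocytes, was at most 0.03 FPKM in HFD-AOSFMT libraries and at most 0.04 FPKM in control libraries. What part kidney RNA had in the Kap result was not tested.

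**Figure D1:**
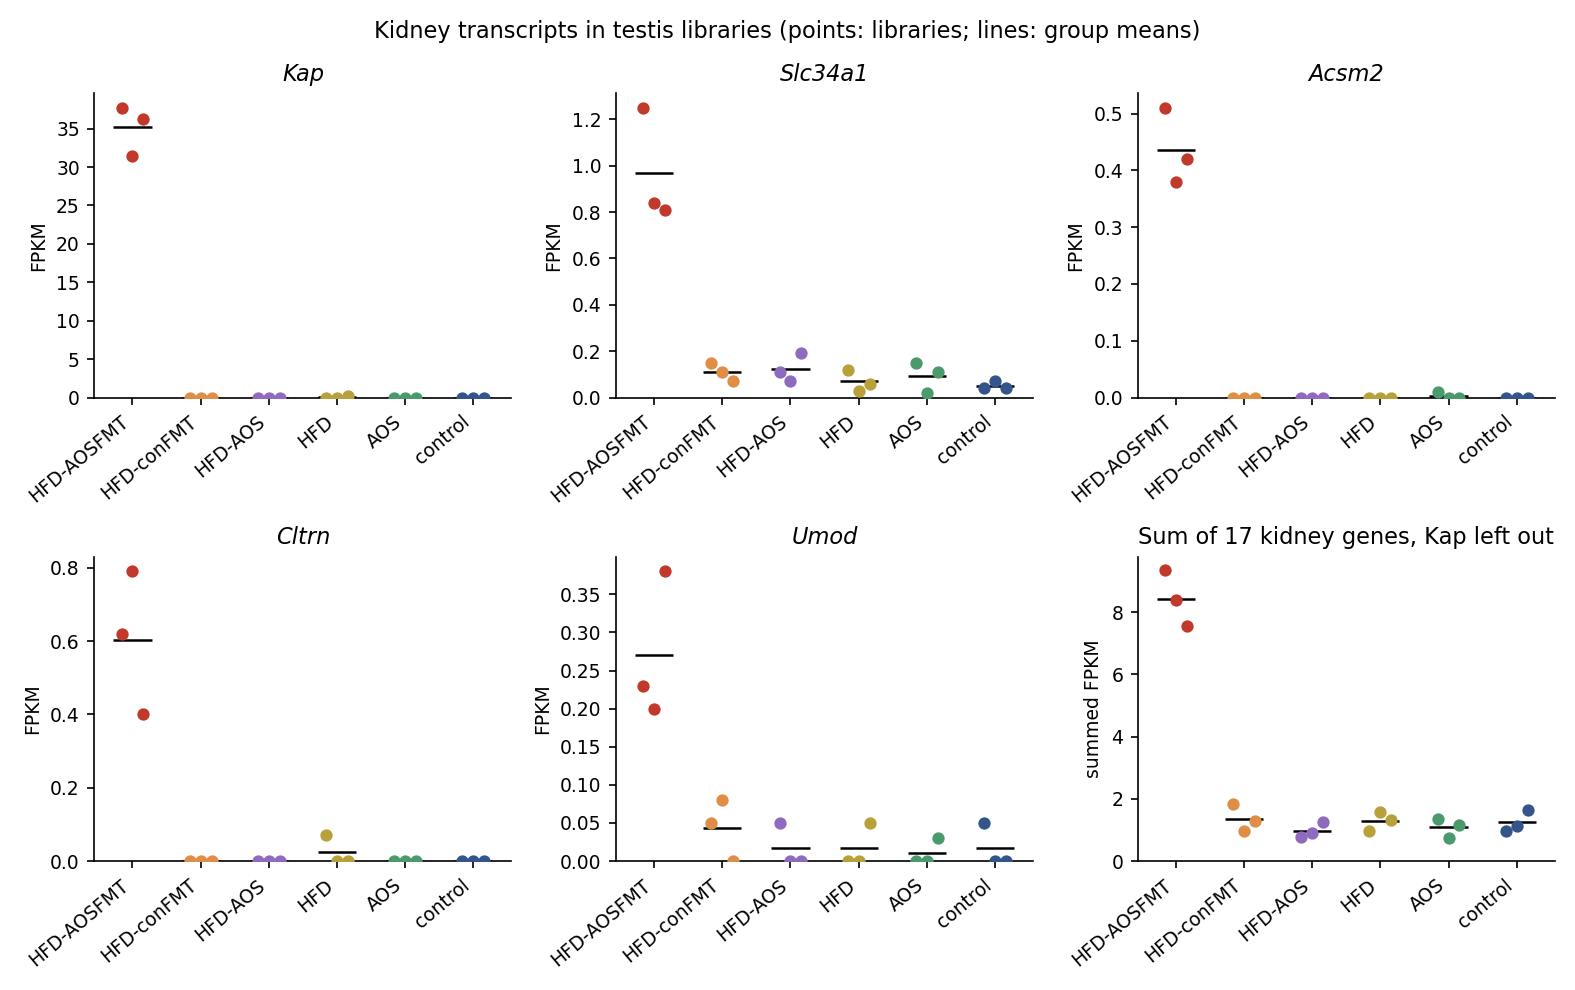
FPKM of Kap, Slc34a1, Acsm2, Cltrn and Umod, and the summed FPKM of the 17 kidney genes other than Kap with this pattern, in each library of the 6 groups (points) with group means (lines). All genes shown or summed were picked because their 3 HFD-AOSFMT libraries lie above every other library, with Kap between 31.47 and 37.69 FPKM and the sum between 7.56 and 9.34 FPKM.

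Genes found at such a distance from all other libraries were then counted for each group. Asking for every library of a group to reach 2 times the highest of the other 15 libraries, with a group mean of at least 0.1 FPKM, gave 15 genes for HFD-AOSFMT. The same rule gave 1 gene for HFD-conFMT, 2 for HFD-AOS and 0 each for HFD, AOS and control. Of the 15 genes, 10 were in the kidney list. The other 5 were Ces2c, Cyp2a5, Cyp4a10, Ugt2b38 and Spink1, named after their values were seen. The first 4 encode esterase, cytochrome P450 and glucuronosyltransferase enzymes, and Spink1 encodes a trypsin inhibitor. Spink1 was at 0.76, 0.25 and 0.26 FPKM in HFD-AOSFMT libraries and listed at 0 in all 15 other libraries.

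Among the genes that passed, the largest falls were in 3 genes of the kallikrein 1 family, a cluster of related serine protease genes on mouse chromosome 7. Klk1b21, Klk1b24 and Klk1b27 are known in mouse as kallikreins of Leydig cells. Klk1b27 (chr7:44052290-44056712) was at 4.51, 1.54 and 3.74 FPKM in HFD-AOSFMT libraries, against 22.35, 16.75 and 10.65 FPKM in control libraries. Klk1b21 (chr7:44102328-44106583) was at 5.91, 4.26 and 6.03 FPKM in HFD-AOSFMT libraries, against 26.51, 21.56 and 15.95 FPKM in control libraries. Klk1b24 (chr7:44188236-44192455) was at 7.51, 5.33 and 6.39 FPKM in HFD-AOSFMT libraries, against 29.64, 23.39 and 13.73 FPKM in control libraries. For each of the 3 genes the groups did not overlap, and control replicate 3 was the lowest of its group. As ratios of group means, HFD-AOSFMT had 0.197 of the control level of Klk1b27, 0.253 of that of Klk1b21 and 0.288 of that of Klk1b24. The log2(FPKM + 1) differences were -2.06 ± 0.38 for Klk1b27, -1.79 ± 0.29 for Klk1b21 and -1.60 ± 0.31 for Klk1b24 (SE; limma adjusted p = 0.0425, 0.0331 and 0.0425).

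Most of the family did not pass the test. Of 14 members, 10 passed the filter, 3 fell and 0 rose, where 0.137% of all genes fell. The HFD-AOSFMT libraries all lay below the control libraries for 4 of the 10 (40%, against 15.4% of all genes). Klk1b26 was the fourth, at 3.26, 1.48 and 4.18 FPKM in HFD-AOSFMT libraries, against 6.36, 5.74 and 4.48 FPKM in control libraries. Klk1b8, the most abundant member, was at 93.15, 103.04 and 101.85 FPKM in HFD-AOSFMT libraries, against 85.77, 81.69 and 75.07 FPKM in control libraries, and did not pass (adjusted p = 0.0819, limma). Below the filter, Klk1b22 was at 0.64, 0.18 and 0 FPKM in HFD-AOSFMT libraries, against 4.26, 3.43 and 0.92 FPKM in control libraries. Klk1b16 was at 0.36, 0.09 and 0.09 FPKM in HFD-AOSFMT libraries, against 2.46, 1.10 and 1.37 FPKM in control libraries. The median over the 10 members was 0.03 on the log2 scale, and scaling to the same sum gave -0.024, above the -0.074 of all genes.

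**Figure D2:**
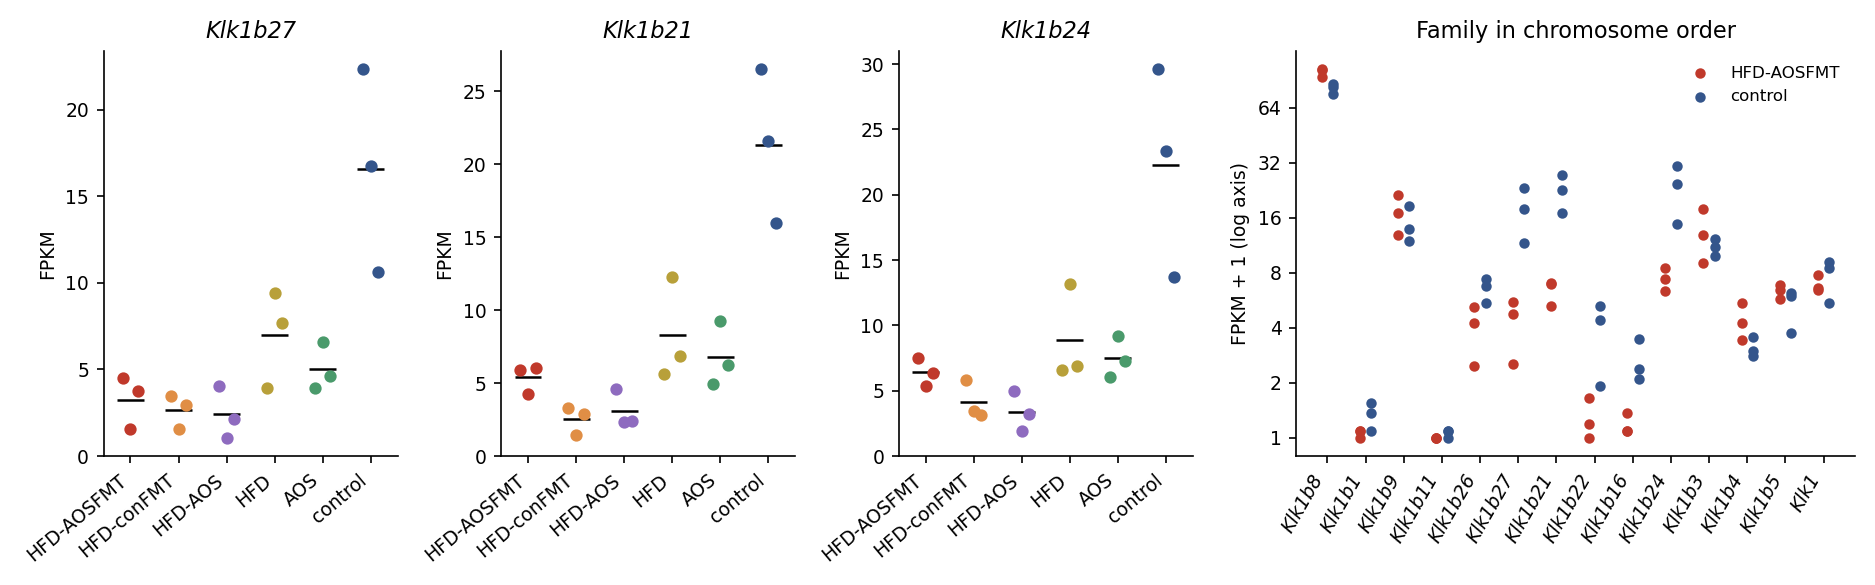
FPKM of Klk1b27, Klk1b21 and Klk1b24 in every library of the 6 groups (points) with group means (lines), and the 14 family members in chromosome order in the HFD-AOSFMT and control libraries (FPKM + 1, log axis). The control libraries of these 3 genes stand above all 15 other libraries, and for Klk1b3 and Klk1b5 the HFD-AOSFMT and control libraries overlap.

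The low level of these kallikreins was not found in HFD-AOSFMT libraries alone. Klk1b21 was at 3.28, 1.44 and 2.86 FPKM in HFD-conFMT, 4.59, 2.31 and 2.41 FPKM in HFD-AOS, 5.64, 12.29 and 6.88 FPKM in HFD and 4.92, 9.28 and 6.21 FPKM in AOS libraries. All 15 libraries other than control lay below the lowest control library for Klk1b21, Klk1b24 and Klk1b27. Against HFD alone, HFD-AOSFMT differed by -0.92 for Klk1b27, -0.48 for Klk1b21 and -0.37 for Klk1b24 on the log2 scale, and none passed (limma adjusted p = 0.452, 0.613 and 0.732). The Leydig cell list, given as context for these genes, had 23 tested members, of which 9 were higher and 14 lower, with a median of -0.04 and 0 calls. Because the transcripts of the 3 genes share 90.8% to 92.7% of their bases in the GENCODE annotation, reads may have been split among them, and the share of each is uncertain.

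Among the other rises named by size, the differences were smaller, at most 1.43 times by ratio of means. Sec61g encodes the gamma subunit of the channel that passes new proteins into the endoplasmic reticulum. It stood at 32.1, 30.67 and 30.02 FPKM in HFD-AOSFMT libraries, against 20.81, 21.38 and 23.52 FPKM in control libraries. The groups did not overlap, and the log2 difference was 0.48 ± 0.07 (SE, limma adjusted p = 0.0331). Sec61g was called in 21 of the 29 alternatives, more than any other gene named here except Kap. Rpl41, a ribosomal protein of very short length, was at 1257.83, 1276.73 and 1307.66 FPKM in HFD-AOSFMT libraries, against 1004.97, 927.13 and 1003.48 FPKM in control libraries (log2 difference 0.39, adjusted p = 0.0496). Mrpl57, a protein of the mitochondrial ribosome, was at 24.23, 23.59 and 24.19 FPKM in HFD-AOSFMT libraries, against 19.14, 18.59 and 18.28 FPKM in control libraries (0.35, adjusted p = 0.0425). Slirp, which stabilises mitochondrial messenger RNAs, was at 115.81, 112.74 and 119.34 FPKM in HFD-AOSFMT libraries, against 95.02, 90.94 and 88.62 FPKM in control libraries (0.34, adjusted p = 0.0496).

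The remaining rises named by size were of like extent. Nt5c, a nucleotidase that removes phosphate from deoxynucleotides, was at 27.83, 31.14 and 28.34 FPKM in HFD-AOSFMT libraries, against 22.3, 18.45 and 21.69 FPKM in control libraries (log2 difference 0.47 ± 0.08, limma adjusted p = 0.0331). Rnaseh2c, a subunit of the enzyme that removes ribonucleotides from DNA, was at 25.22, 30.47 and 27.63 FPKM in HFD-AOSFMT libraries, against 22.14, 20.52 and 21.39 FPKM in control libraries (0.36, adjusted p = 0.0425). Hist2h2aa1, a replication-dependent H2A gene with a near-identical copy, so that its own level is uncertain, was at 457.89, 460.2 and 461.88 FPKM in HFD-AOSFMT libraries, against 349.38, 378.41 and 378.87 FPKM in control libraries (0.32, adjusted p = 0.0331). Its 3 HFD-AOSFMT values were nearly alike. Hdhd3, of the haloacid dehalogenase-like hydrolases, was at 6.46, 6.6 and 6.28 FPKM in HFD-AOSFMT libraries, against 4.75, 4.47 and 4.34 FPKM in control libraries (0.43, adjusted p = 0.0331). C1qtnf4, a secreted protein of the complement C1q and tumour necrosis factor-related family, was at 108.56, 120.58 and 117.13 FPKM in HFD-AOSFMT libraries, against 91.04, 76.13 and 87.23 FPKM in control libraries (0.44, adjusted p = 0.0493). Ttc24 differed by 0.41 and Tmem239 by 0.34 (adjusted p = 0.0425 for both), again with no overlap.

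The genes that fell outside the kallikrein cluster had mostly long transcripts. Cxcl12, a chemokine that guides cells bearing its receptor Cxcr4, was at 5.5, 5.01 and 5.84 FPKM in HFD-AOSFMT libraries, against 8.84, 7.42 and 10.57 FPKM in control libraries (log2 difference -0.61 ± 0.13, SE, limma adjusted p = 0.0496). Spon1, the matrix protein spondin 1, was at 1.25, 1.54 and 1.87 FPKM in HFD-AOSFMT libraries, against 2.86, 2.4 and 2.45 FPKM in control libraries (-0.49, adjusted p = 0.04996). HFD-AOSFMT had 0.609 of the control level of Cxcl12 and 0.604 of that of Spon1. Ubxn2a, an adaptor of the p97 ATPase, was at 2.99, 2.57 and 3.09 FPKM in HFD-AOSFMT libraries, against 4.27, 3.9 and 3.86 FPKM in control libraries (-0.37, adjusted p = 0.0425). Arhgap5, a GTPase-activating protein, was at 24.74, 24.91 and 25.58 FPKM in HFD-AOSFMT libraries, against 29.73, 31.43 and 29.51 FPKM in control libraries (-0.26, adjusted p = 0.0364). Mmd2 fell by 0.34, Gon4l and Prrc2c each fell by 0.30, Tulp4 fell by 0.26 and Mdm1, a microtubule-binding protein of centrioles, fell by 0.25 (adjusted p between 0.0425 and 0.0496). Of the 24 genes named by size in the 2 directions, 0 changed sign in any alternative, but those other than Kap were called in 6 to 21 of the 28 or 29 that could test them.

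**Figure D3:**
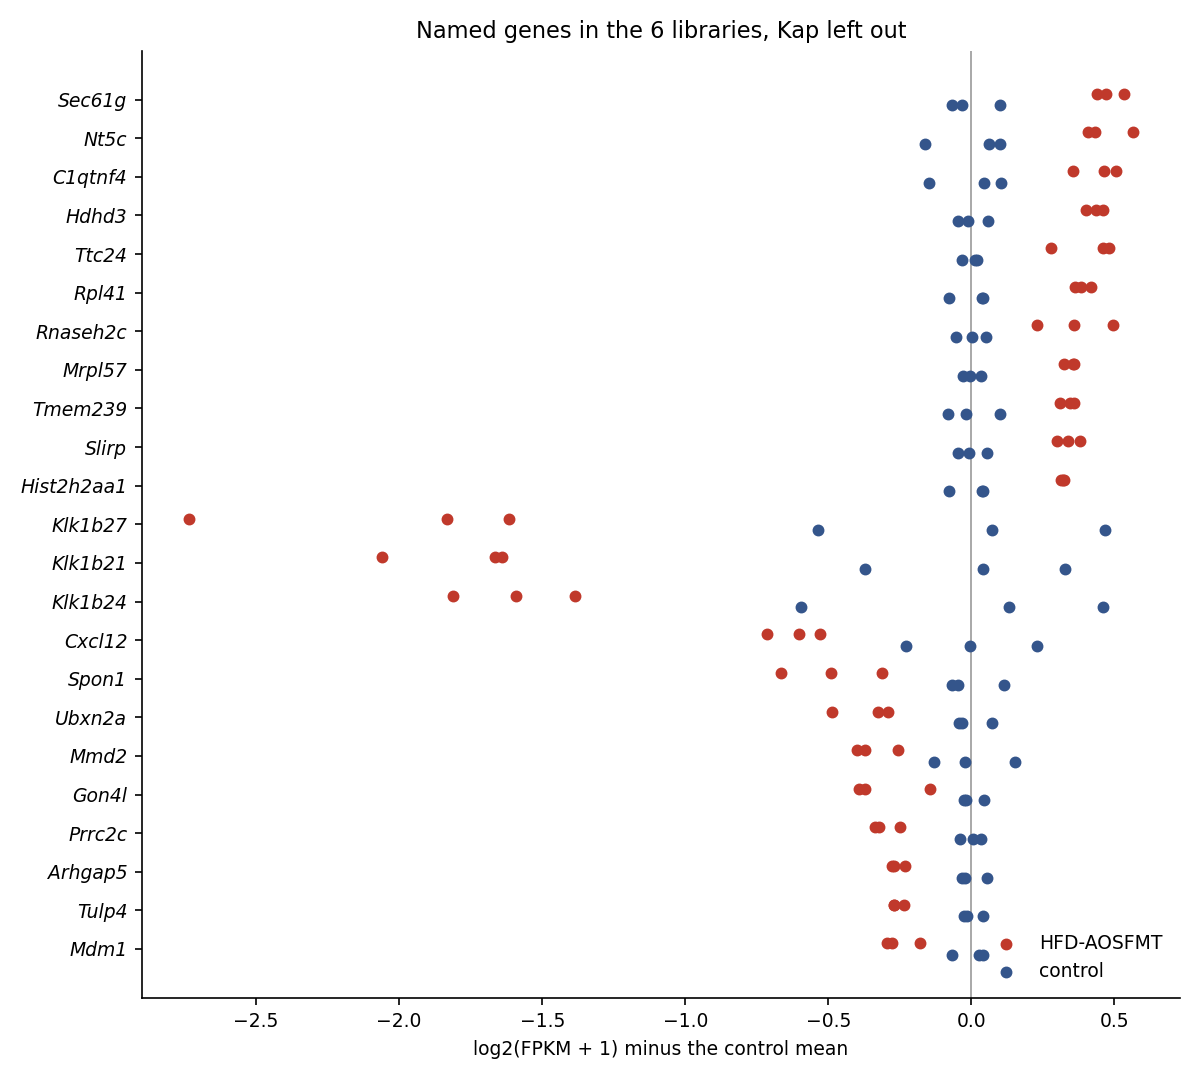
The 23 genes named by size other than Kap, each in the 3 HFD-AOSFMT and 3 control libraries, as log2(FPKM + 1) minus the mean of the control libraries. HFD-AOSFMT points lie wholly to the right or left of the control points for every gene, and Klk1b27, Klk1b21 and Klk1b24 lie more than 1 unit to the left.

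The protein synthesis and energy lists held mostly genes with higher values in HFD-AOSFMT, though few of them passed the test. Of 83 cytosolic ribosomal protein genes tested, 74 were higher in HFD-AOSFMT, with a median of 0.18 where the median of all genes tested was -0.018. All 3 HFD-AOSFMT libraries lay above all 3 control libraries for 43 of them (51.8%, against 11.0% of all genes) and below for 0. The 2 that rose were Rpl41 and Rpl13. Rpl13 was at 447.59, 457.03 and 476.29 FPKM in HFD-AOSFMT libraries, against 397.69, 385.85 and 394.29 FPKM in control libraries (log2 difference 0.23, limma adjusted p = 0.0496). Ribosomal protein genes have many processed copies, so their reads may be shared with these.

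Of 82 nuclear genes of the respiratory chain, whose proteins carry electrons and make ATP in mitochondria, 76 were higher, with a median of 0.15. Upward, 40 did not overlap (48.8%, against 11.0% of all genes). Ndufb9 and Ndufb2, both of complex I, rose. Ndufb9 was at 111.31, 116.62 and 110.24 FPKM in HFD-AOSFMT libraries, against 95.21, 96.61 and 94.35 FPKM in control libraries (0.24, adjusted p = 0.0364, limma). Ndufb2 was at 47.58, 48.11 and 52.29 FPKM in HFD-AOSFMT libraries, against 39.68, 40.66 and 41.65 FPKM in control libraries (0.27, adjusted p = 0.0425). Of 78 mitochondrial ribosomal protein genes, 67 were higher, with a median of 0.094, and 20 did not overlap upward (25.6%). Mrpl57 and Mrpl54 rose. Mrpl54 was at 171.72, 183.57 and 187.55 FPKM in HFD-AOSFMT libraries, against 153.85, 136.7 and 148.93 FPKM in control libraries (0.30, adjusted p = 0.0496). Of 22 replication-dependent histone genes tested, out of 66 on the list, 15 were higher with a median of 0.07, and Hist2h2aa1 rose. Hist1h3h was at 7.65, 6.23 and 5.95 FPKM in HFD-AOSFMT libraries, against 0, 4.54 and 3.47 FPKM in control libraries, and did not pass (adjusted p = 0.123).

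These medians kept their sign under every scaling tried. The ribosomal median was 0.12 after quantile normalization and 0.11 after scaling to the same sum, and the respiratory median was 0.12 and 0.086. The other groups, which share the control libraries, had ribosomal medians against control of 0.21 in HFD-conFMT, 0.11 in HFD-AOS, 0.041 in HFD and 0.087 in AOS. Their respiratory medians were 0.18 in HFD-conFMT, 0.084 in HFD-AOS, 0.053 in HFD and 0.094 in AOS.

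Other lists lay the other way. The median transcript length was 3726 bases for nuclear pore genes and 3756.5 bases for ubiquitin-specific proteases. It was 1748 bases for the axoneme list, below the 1991 bases of all genes tested. Of 47 nuclear pore and import genes, 8 were higher and 39 lower, with a median of -0.069, and 21 did not overlap downward (44.7%, against 15.4% of all genes) with 0 calls. Tpr, the filament protein of the nuclear basket, was at 14.0, 14.79 and 13.87 FPKM in HFD-AOSFMT libraries, against 16.28, 17.04 and 16.23 FPKM in control libraries, and narrowly missed (adjusted p = 0.0534, limma). Ranbp2, a nucleoporin of the cytoplasmic filaments, had an adjusted p of 0.0758. Of 45 ubiquitin-specific proteases, which remove ubiquitin from proteins, 5 were higher, the median was -0.083, and 16 did not overlap downward (35.6%). Usp34 fell, at 20.17, 20.21 and 19.82 FPKM in HFD-AOSFMT libraries, against 22.65, 23.85 and 23.08 FPKM in control libraries (-0.20, adjusted p = 0.0496). Of 55 axoneme and dynein genes, which build and drive the sperm tail, 17 were higher, the median was -0.052, and 21 did not overlap downward (38.2%) with 0 calls. Dnah2 and Dnah7a, both heavy chains of axonemal dynein, had the smallest p (adjusted p = 0.0784 and 0.0877).

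Across genes, transcript length ran along with the differences. The median transcript length was 741.5 bases for the genes that rose and 3132 bases for those that fell, where that of all genes tested was 1991 bases. Over 12873 genes with a length, Spearman's rank correlation between length and the log2 difference was -0.358, a description across genes that share the same libraries. In 5 classes of equal size, ordered by length with the shortest first, the median difference was 0.055, 0.028, -0.014, -0.046 and -0.077, and 62.8%, 60.3%, 44.1%, 31.3% and 21.9% of genes were higher in HFD-AOSFMT. Once the trend with length was removed, Kap alone was called, and the ribosomal median was 0.11 and the respiratory median 0.09. The nuclear pore median was then -0.037, that of ubiquitin-specific proteases -0.038 and that of the axoneme list -0.035. The part of length in the single calls was not tested beyond this.

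**Figure D4:**
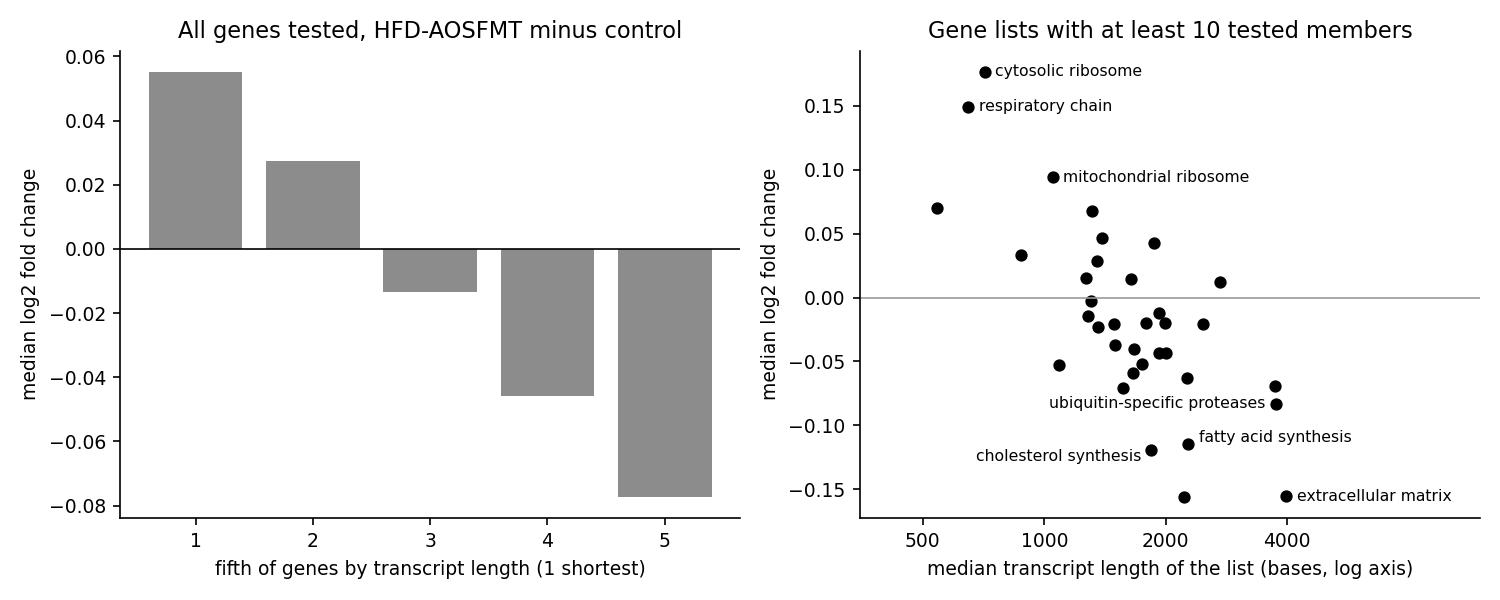
Left, the median log2 difference (HFD-AOSFMT minus control) in 5 length classes of the 12873 genes with a length, the shortest first. Right, the same median for each list with at least 10 tested members against the list's median transcript length in bases (log axis), where the cytosolic ribosome (0.18) and respiratory chain (0.15) are at the top among short transcripts and extracellular matrix (-0.16) is near the bottom among long ones.

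Lipid synthesis genes were mostly lower in HFD-AOSFMT, with 0 calls. Cholesterol synthesis supplies the substrate of testosterone. Of 24 tested genes of that pathway, 6 were higher and 18 lower, with a median of -0.12. Downward, 8 did not overlap (33.3%, against 15.4% of all genes). Lss, which closes the rings of lanosterol, was at 2.62, 2.95 and 3.19 FPKM in HFD-AOSFMT libraries, against 3.91, 3.71 and 4.56 FPKM in control libraries (-0.37 ± 0.08, SE, limma adjusted p = 0.0534). Hmgcs1, which makes the HMG-CoA used by the pathway, was at 26.73, 26.58 and 29.29 FPKM in HFD-AOSFMT libraries, against 32.16, 32.11 and 36.06 FPKM in control libraries (-0.27, adjusted p = 0.0877). Neither gene overlapped between groups and neither passed. Of 19 genes of fatty acid synthesis and desaturation, 2 were higher, with a median of -0.11, and 8 did not overlap downward (42.1%). Fasn, fatty acid synthase, was at 7.62, 8.34 and 8.43 FPKM in HFD-AOSFMT libraries, against 9.5, 9.6 and 9.57 FPKM in control libraries (adjusted p = 0.0653). Fads1, the delta-5 desaturase, was at 24.41, 24.19 and 26.82 FPKM in HFD-AOSFMT libraries, against 35.23, 30.64 and 47.94 FPKM in control libraries (-0.55, adjusted p = 0.0653). Of 25 genes of fatty acid uptake and oxidation, 8 were higher, with a median of -0.02 close to that of all genes.

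The other groups share the control libraries, and their sterol medians against control were -0.17 in HFD-conFMT, -0.21 in HFD-AOS, -0.017 in HFD and -0.19 in AOS. The medians of all genes in these comparisons were -0.012 in HFD-conFMT, -0.029 in HFD-AOS, -0.011 in HFD and -0.029 in AOS. Those of the fatty acid synthesis list were -0.13 in HFD-conFMT, -0.20 in HFD-AOS, -0.056 in HFD and -0.12 in AOS.

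**Figure D5:**
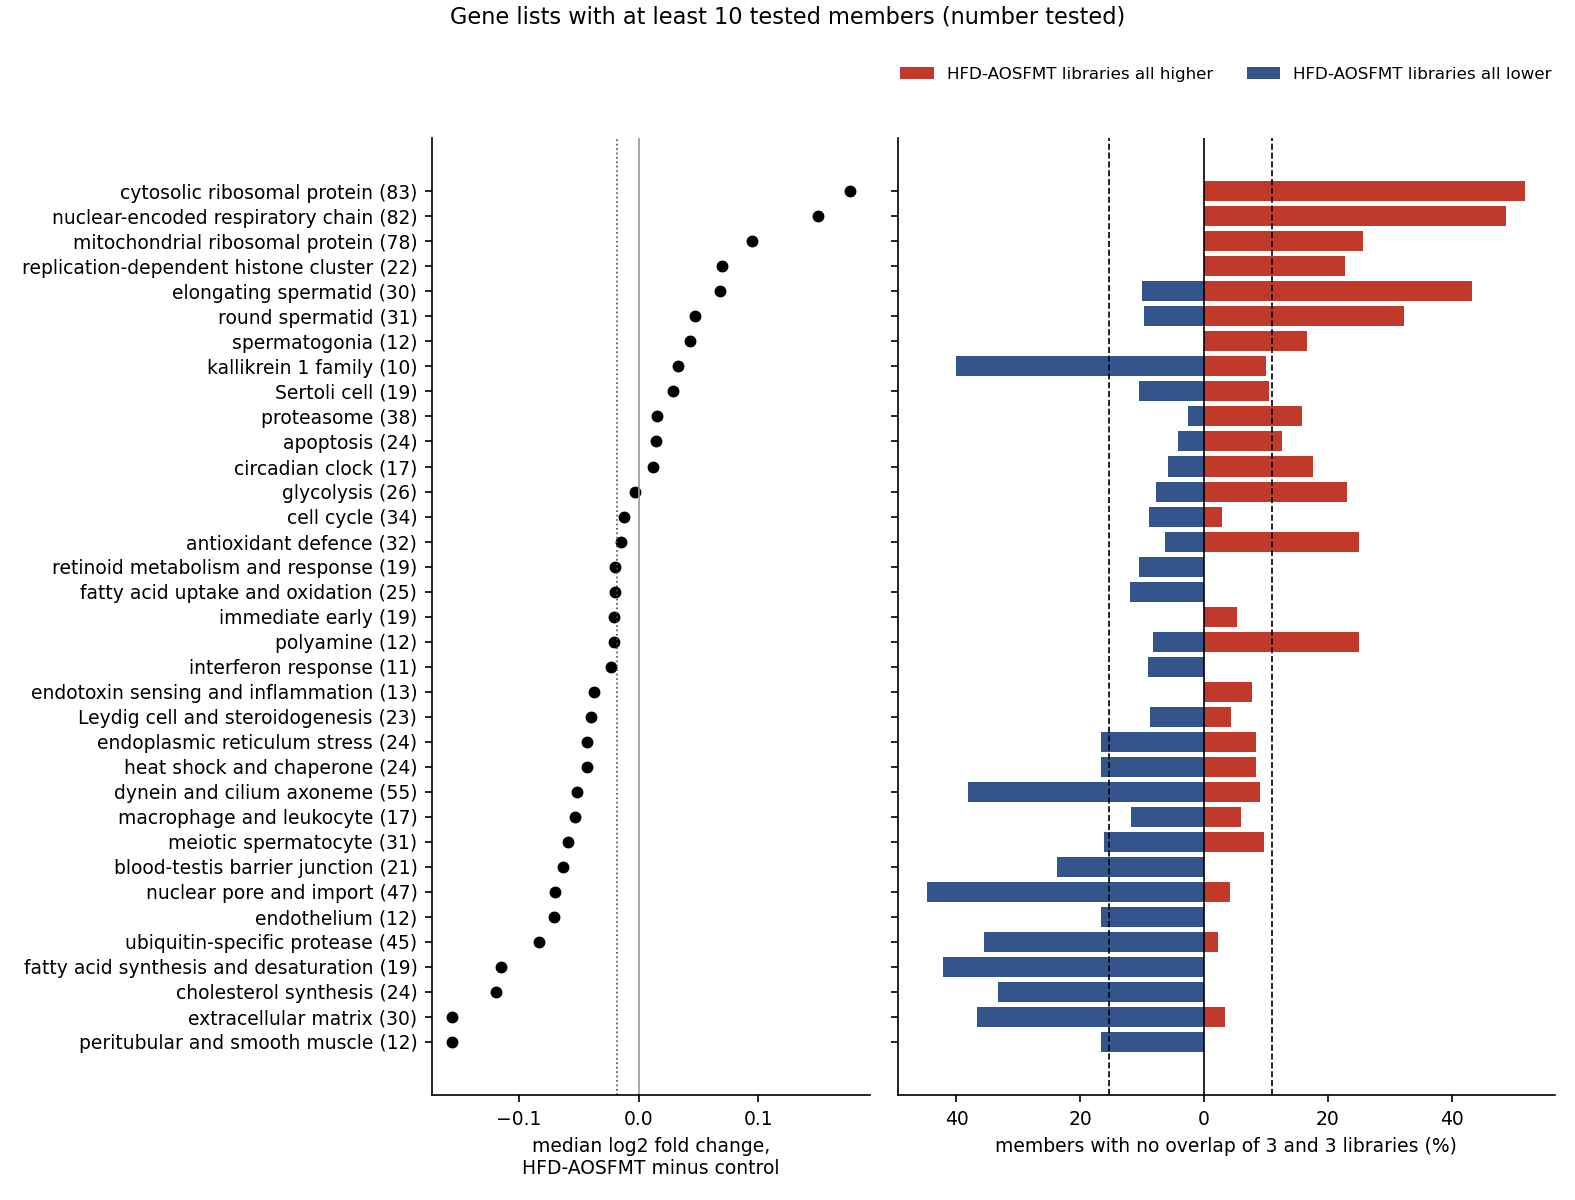
Gene lists with at least 10 tested members (number tested in brackets). Left, the median log2 difference, HFD-AOSFMT minus control, with the median of all genes as a dotted line. Right, the share of members whose 3 HFD-AOSFMT libraries all lie above (red) or below (blue) all 3 control libraries, with dashed lines at the shares of all genes (11.0% and 15.4%). Cytosolic ribosomal proteins reach 51.8% upward and nuclear pore genes 44.7% downward.

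Germ cell lists held no call. Of 30 elongating spermatid genes, 23 were higher, with a median of 0.07. No overlap was seen upward for 13 of them (43.3%, against 11.0% of all genes) and downward for 3 (10.0%, against 15.4%). Txndc8, a spermatid thioredoxin, was at 207.05, 210.7 and 206.8 FPKM in HFD-AOSFMT libraries, against 182.48, 159.85 and 171.02 FPKM in control libraries, and missed the threshold (0.28, limma adjusted p = 0.0521). Tnp1, the transition protein, averaged 7801 ± 309 FPKM in HFD-AOSFMT and 6431 ± 376 FPKM in control libraries (SD, n = 3 each), without overlap and without passing (adjusted p = 0.195, limma). Prm1 did not pass either (adjusted p = 0.308). Of 31 round spermatid genes, 22 were higher, with a median of 0.05. No overlap was seen upward for 10 of them (32.3%) and downward for 3 (9.7%). Tssk3, a kinase of late spermatids, was at 199.79, 201.49 and 209.13 FPKM in HFD-AOSFMT libraries, against 187.53, 181.74 and 179.89 FPKM in control libraries (adjusted p = 0.0974). The direction of both spermatid lists depended on the scaling. Quantile normalization turned the medians to -0.015 for elongating and -0.009 for round spermatids, where the median of all genes was -0.012. Scaling to the same sum lowered the median of all genes to -0.074, and gave -0.017 for round spermatids, still above all genes.

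Of 31 meiotic genes, 7 were higher and 24 lower, with a median of -0.06, and 5 did not overlap downward (16.1%, close to the 15.4% of all genes). Sycp2, an axial protein of the synaptonemal complex that pairs chromosomes, was at 76.13, 75.74 and 72.51 FPKM in HFD-AOSFMT libraries, against 84.43, 89.92 and 84.99 FPKM in control libraries (-0.21, limma adjusted p = 0.086). Syce3, a central element protein of the same complex, was higher, at 138.35, 201.5 and 190.93 FPKM in HFD-AOSFMT libraries, against 122.31, 116.45 and 125.82 FPKM in control libraries (0.52, adjusted p = 0.0945). HFD-AOSFMT replicate 1 was well below the other 2 of its group for Syce3. Sycp3, the partner of Sycp2, averaged 185 ± 6.68 FPKM in HFD-AOSFMT and 190 ± 5.49 FPKM in control libraries, and Ddx4, the germ cell helicase, averaged 224 ± 2.42 FPKM in HFD-AOSFMT and 230 ± 6.65 FPKM in control libraries. Both had an adjusted p above 0.6. Of 12 spermatogonial genes tested out of 20, 8 were higher, with a median of 0.04, and scaling to the same sum gave -0.002, above the -0.074 of all genes.

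Among steroid-making genes of Leydig cells, none of the panel passed. Star, which brings cholesterol into mitochondria, averaged 38.6 ± 9.69 FPKM in HFD-AOSFMT and 44.5 ± 7.68 FPKM in control libraries (SD, n = 3 each; limma adjusted p = 0.514). Cyp11a1, the side-chain cleavage enzyme, averaged 108 ± 17.4 FPKM in HFD-AOSFMT and 133 ± 15.2 FPKM in control libraries (adjusted p = 0.336). Cyp17a1, which makes androgen precursors, averaged 264 ± 46.6 FPKM in HFD-AOSFMT and 348 ± 36.1 FPKM in control libraries (-0.40, adjusted p = 0.136). Hsd3b1, which oxidises those precursors, lay the other way, at 102 ± 24.8 FPKM in HFD-AOSFMT and 71.2 ± 9.17 FPKM in control libraries (0.49, adjusted p = 0.186). Hsd17b3, which makes testosterone, averaged 40.5 ± 4.23 FPKM in HFD-AOSFMT and 41.9 ± 3.97 FPKM in control libraries. These 5 genes overlapped between the groups. Soat1, which esterifies cholesterol for storage, was at 7.95, 6.94 and 8.32 FPKM in HFD-AOSFMT libraries, against 8.91, 9.98 and 9.64 FPKM in control libraries (adjusted p = 0.0653), and Prlr, the prolactin receptor, had an adjusted p of 0.0859.

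The supporting cells gave small differences. Of 19 Sertoli cell genes, 12 were higher with a median of 0.03, and scaling to the same sum gave -0.019, above the -0.074 of all genes. Sox9, the factor of Sertoli cell identity, averaged 2.98 ± 0.32 FPKM in HFD-AOSFMT and 2.90 ± 0.40 FPKM in control libraries. Amh, a hormone of immature Sertoli cells, was below the filter. Gata4, a transcription factor of Sertoli and Leydig cells, averaged 5.04 ± 0.148 FPKM in HFD-AOSFMT and 6.33 ± 0.118 FPKM in control libraries, and did not pass (limma adjusted p = 0.117). Rhox8, a homeobox gene of Sertoli cells, averaged 13.9 ± 0.831 FPKM in HFD-AOSFMT and 11.9 ± 0.495 FPKM in control libraries (adjusted p = 0.136). Of 21 genes of the blood-testis barrier junctions, 4 were higher, with a median of -0.06. Itgb1, the beta-1 integrin, was at 11.38, 12.66 and 11.87 FPKM in HFD-AOSFMT libraries, against 14.13, 14.32 and 13.92 FPKM in control libraries (-0.22, adjusted p = 0.0571), and Ctnnd1, the p120 catenin, had an adjusted p of 0.0819.

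Of 30 extracellular matrix genes, 4 were higher, with a median of -0.16 and 0 calls. Downward, 11 did not overlap (36.7%, against 15.4% of all genes). Timp2, an inhibitor of matrix metalloproteinases, was at 50.25, 55.1 and 54.79 FPKM in HFD-AOSFMT libraries, against 59.48, 62.7 and 62.53 FPKM in control libraries (limma adjusted p = 0.114). Lum, the proteoglycan lumican, averaged 1.67 ± 0.0557 FPKM in HFD-AOSFMT and 2.29 ± 0.426 FPKM in control libraries (adjusted p = 0.107). Of 12 peritubular and smooth muscle genes, 2 were higher, also with a median of -0.16. Myh11, the smooth muscle myosin, averaged 4.73 ± 0.515 FPKM in HFD-AOSFMT and 5.80 ± 0.249 FPKM in control libraries (adjusted p = 0.0999). Of 12 endothelial genes 3 were higher and of 17 macrophage and leukocyte genes 5 were higher, with medians of -0.07 and -0.05 and 0 calls.

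Of 32 antioxidant genes, 15 were higher, with a median of -0.015 (0.009 with the length trend removed) and 8 without overlap upward (25.0%, against 11.0% of all genes). Mt2, a metallothionein that binds zinc and copper, was at 455.58, 506.3 and 490.19 FPKM in HFD-AOSFMT libraries, against 435.21, 363.39 and 376.49 FPKM in control libraries (0.31, limma adjusted p = 0.0784). Sod1, the cytosolic superoxide dismutase, averaged 321 ± 14.1 FPKM in HFD-AOSFMT and 279 ± 16.8 FPKM in control libraries (adjusted p = 0.089). For both genes the groups did not overlap. The lists for glycolysis, proteasome, cell cycle, clock, polyamines, retinoids, adipocytes, microbial metabolite receptors, chaperones, endoplasmic reticulum stress, apoptosis, immediate early genes, interferon response and inflammation held 0 calls.

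Markers of blood and of neighbouring organs differed among libraries of a group. Hbb-b1, a beta globin gene with a near-identical copy, was at 7.44, 17.07 and 42.08 FPKM in HFD-AOSFMT libraries, against 52.04, 34.73 and 41.88 FPKM in control libraries. Of 5 blood genes tested, 2 were higher and the median was -0.32. The fit with the length trend removed took only genes with a length. Its median of 0.028 may therefore rest on fewer of these genes. Cd52, abundant in epididymis and lymphocytes, was at 1.53, 0.94 and 1.15 FPKM in HFD-AOSFMT libraries, against 2.56, 2.19 and 133.05 FPKM in control libraries. Of 8 epididymal genes tested, 3 were higher and the median was -0.69, and control replicate 3 held by far the highest Crisp1 and Cd52 of its group. Svs5, of the seminal vesicle, was at 2.92, 2.74 and 2.65 FPKM in HFD-AOSFMT libraries, against 1.65, 2.26 and 1.64 FPKM in control libraries, and did not pass (limma adjusted p = 0.127). The part of these tissues in other results was not tested.

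The remaining comparisons asked whether HFD-AOSFMT differed from the high-fat diet without that transplant. Against HFD alone, 3 genes passed, all higher in HFD-AOSFMT, or 0.0229% (limma, with 1287 genes at an unadjusted p under 0.05). They were Kap, with a difference of 5.11, Dgcr6 and Hagh. Dgcr6 was at 75.77, 75.57 and 78.2 FPKM in HFD-AOSFMT libraries, against 66.44, 60.08 and 61.35 FPKM in HFD libraries (0.29, adjusted p = 0.0394). Hagh, a glyoxalase that clears the glutathione adduct of methylglyoxal, was at 164.69, 169.56 and 165.57 FPKM in HFD-AOSFMT libraries, against 142.77, 135.44 and 145.81 FPKM in HFD libraries (0.24, adjusted p = 0.0394). For both genes the HFD-AOSFMT libraries also stood above the control libraries, where Dgcr6 was at 64.78, 65.29 and 66.26 FPKM and Hagh at 150.65, 147.53 and 148.09 FPKM. The level was not particular to HFD-AOSFMT. In HFD-conFMT libraries Dgcr6 was at 71.47, 77.01 and 76.96 FPKM and Hagh at 161.61, 164.38 and 161.81 FPKM. Every HFD-AOS and AOS library also stood above every HFD library for both genes.

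Against HFD-conFMT, the group that differs by the label of the transplant, Kap alone passed, or 0.00763% of genes, with a difference of 5.17 (limma adjusted p = 1.48e-16) and 409 genes at an unadjusted p under 0.05. With no filter on low values, 14 of 20576 genes rose in HFD-AOSFMT against HFD-conFMT, or 0.0680%, and 10 of them were kidney genes of the list, named after Kap was seen. Among these, Glyat and S100g had values in HFD-AOSFMT libraries only. None of the other 23 genes named by size passed against HFD or HFD-conFMT. The p-values that missed the threshold do not show that these groups were alike.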

How the data were processed

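RNA was extracted from frozen testis with Trizol and a column kit, and 1 ug of total RNA went into Illumina libraries, per the labels' protocols. Reads were mapped with Bowtie 0.12.2, and mm10 is the genome build, per the submitters' processing notes. The authors deposited a table of 20985 rows whose header names no unit, and the counting tool is not given in the sources used here. Deposited values were read as FPKM, because library sums differ and low values step with transcript length. The depth being unknown, values carry no counting interval. A few repeated symbols, on 6 rows, were dropped.

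Values were taken as log2(FPKM + 1), and fold changes on this scale understate those of low genes. A limma model (limma 3.58.1, R 4.3.3) with 6 group means over 18 libraries and a mean-variance trend had 12 residual degrees of freedom. Two-sided p-values were adjusted by Benjamini-Hochberg over 13105 genes, with a threshold of 0.05, and the model was tested on simulated data. Up to 12 genes per direction were named by size, among calls without overlap, with a mean of at least 2 FPKM in the higher group and no predicted or clone name. Beside them stand the 2 members of smallest p of each list described and a fixed panel. The comparison, the lists and the rules were chosen with earlier results of these data known, and the kidney list after Kap was seen. Coordinates and lengths are from GENCODE M21 (GRCm38, the assembly of mm10), and 98.2% of genes tested had a length. Figures and sequences were handled in Python 3.11.15 with matplotlib 3.10.9 and Biopython 1.88.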

Additional observations from a re-analysis of the deposited data

Results flagged for a closer look

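Kap differed between HFD-AOSFMT and the other high-fat diet groups by the test of the difference itself, by 5.11 against HFD and by 5.17 against HFD-conFMT on the log2(FPKM + 1) scale, and was higher in 3 of 3 HFD-AOSFMT libraries both times. Against HFD, Dgcr6 differed by 0.29 and Hagh by 0.24 (limma adjusted p = 0.0394 for both), each higher in 3 of 3 HFD-AOSFMT libraries than in any HFD library. Neither Dgcr6 nor Hagh passed against HFD-conFMT. The 17 kidney genes below the filter on low values, picked for lying above all other libraries, summed to a mean of 8.43 FPKM in HFD-AOSFMT and 1.25 FPKM in control libraries. That gap follows from the choice of genes. The whole kidney list without Kap summed to 38.09 to 39.55 FPKM in HFD-AOSFMT and 32.06 to 35.36 FPKM in control libraries. Much of this sum came from Wt1, Trpm6 and Aqp2, whose means were not higher in HFD-AOSFMT.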

How the results depend on the processing

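Kap was called in HFD-AOSFMT against control in all 29 alternatives, with adjusted p-values of 3.21e-17 to 2.79e-07 (limma). The count of 50 calls was far less stable. It was 29 with a pseudocount of 0.1, 108 with a mean of at least 5 FPKM, 375 with libraries scaled to the same sum, 576 with array weights and 18 with only the 2 groups in the fit. It was 1 without a mean-variance trend, 1 with the length trend removed and 1 without both control replicate 3 and HFD-conFMT replicate 2. With no filter it was 62 and after quantile normalization 52, and 39 and 30 of the 50 genes were among these. Leaving out each of the 18 libraries gave 1 to 242 calls, the highest without HFD-AOS replicate 1, and the count moved by over 1.5 times for all but HFD replicate 1 and HFD-AOS replicate 2. Same-numbered HFD-AOSFMT and control libraries had deviations correlated by -0.085, -0.059 and 0.006, so the numbers do not pair them. A replicate block gave 10 calls, and 1 against HFD.

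Against HFD, the 3 calls became 26 with no filter, 5 with a mean of at least 5 FPKM and 7 with array weights. They became 1 under quantile normalization, scaling to the same sum, no trend, length removal and the removal of both libraries, and 1 to 6 when each library was left out. Against HFD-conFMT, the 1 call became 16 with no filter and stayed at 1 when each library was left out. The cause of these changes was not tested. Of 3137 alternative values of 109 named genes, 2553 kept their side of the threshold, 503 lost it, 81 gained it and 0 reversed a call. Of 1159 list medians, 79 moved by more than the spread. Depth is unknown, and values below the filter cannot be given a counting error.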
